A study of Mus musculus with 9 samples.

Results

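The suppressors of cytokine signaling (Socs1 to Socs7 and Cish) and the transcription factor Stat3 were followed in mouse bone marrow-derived macrophages kept under 3 culture conditions. The members were taken by gene symbol from a bulk RNA-seq table and make up 9 of its 24607 genes. All 9 were found, and all 9 passed the filter on low values, which asks for 10 or more in 3 or more libraries. All 9 also passed it when the co-culture libraries were left out.

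The macrophages carried the CX3CR1-gfp/+ genotype in every group and had been differentiated from bone marrow with 50 ng/ml of the growth factor M-CSF. They were then kept for 5 days alone (monoculture), together with sensory neurons from dorsal root ganglia (co-culture) or with 0.02 ng/ml TGF-β, and macrophages were sorted on CD11b and CD64. Each group has 3 libraries from 3 mice. The series title names imprinting of macrophage identity by sensory neurons through TGF-β, which the 3 cultures address. Sorted co-cultured cells and monocultured cells also differ in having shared a dish with every cell type of the ganglion preparation, and TGF-β was given at a single dose.

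SOCS proteins act at the receptors of cytokines. A cytokine brings its receptor chains together, the JAK kinases bound to them phosphorylate the receptor and the STAT factors, and STAT dimers enter the nucleus and start transcription, including that of Socs genes. Each SOCS protein has an SH2 domain that binds phosphotyrosine and a C-terminal SOCS box that recruits elongins, cullin 5 and an E2 enzyme for ubiquitination, and Socs1 and Socs3 also block JAKs through a kinase inhibitory region. Socs3 binds gp130, the shared receptor chain of the IL-6 cytokines encoded by Il6st, and is a known target and inhibitor of STAT3 in macrophages, while Cish and Socs2 are classical targets of STAT5.

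Promoter windows in RefSeq (build GRCm38.p6, the same assembly as mm10), from 250 bases before to 50 bases after the annotated start, were matched for 5 of the 9 members: Socs1, Socs3, Socs4, Cish and Stat3. The palindromic STAT motif TTCNNNGAA, which reads the same on both strands, was found in 2 of these 5 windows and in 8.33% of all 32544 windows. The sequences of the 2 matching genes are shown with that of Socs1, which has no match and was not called in any comparison. Stat3 has no match either and had a called rise in co-culture, as Socs3 and Cish did. The capitals mark the motif.
Socs3, 250 bases before the start, chr11:117969367-117969616, minus strand: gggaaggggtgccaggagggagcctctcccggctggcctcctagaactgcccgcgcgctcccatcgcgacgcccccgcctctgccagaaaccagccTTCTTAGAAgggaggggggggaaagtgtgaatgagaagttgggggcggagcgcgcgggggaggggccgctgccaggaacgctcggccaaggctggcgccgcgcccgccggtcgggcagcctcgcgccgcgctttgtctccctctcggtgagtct
Cish, 26 bases around the start, chr9:107296656-107296681, plus strand: gttTTCCTGGAAagTTCTTGGAAatc
Socs1, 250 bases before the start, chr16:10785537-10785786, minus strand: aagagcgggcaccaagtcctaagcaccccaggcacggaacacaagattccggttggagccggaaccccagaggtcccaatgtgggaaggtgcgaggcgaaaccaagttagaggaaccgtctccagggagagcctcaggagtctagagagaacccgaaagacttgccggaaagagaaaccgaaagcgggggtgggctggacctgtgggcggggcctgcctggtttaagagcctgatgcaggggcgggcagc
The Socs3 match (TTCTTAGAA) begins at position -154 from the start, and GENCODE places it in an intron of a non-coding Socs3 transcript and in no exon. Cish holds a pair of matches, TTCCTGGAA at position 1 and TTCTTGGAA at position 12, both in the 5′ UTR of a longer annotated Cish transcript. At least 2 matches occurred in 0.461% of all windows. On both strands, the AP-1 motif TGANTCA (7.79% of all windows) and the SMAD motif CAGACA (20.9%) had no match in the 5 member windows, which says only that those letters are not in these 300 bases.

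The libraries held 46831914 to 308777042 recovered reads, and 1 read corresponded to 0.346 to 2.27 of the deposited normalized counts. The co-culture libraries had 133804569 reads or more and the TGF-β libraries 151572474 or fewer, and TGF-β replicates 2 and 3 were the shallowest of all, so low genes are measured least precisely there. All 10 macrophage markers fixed for the check were present in every group, and their summed normalized count ranged from 1.02e+06 to 1.15e+06 in the monoculture libraries. It ranged from 1.27e+06 to 1.63e+06 in the co-culture libraries and from 1.21e+06 to 1.39e+06 in those given TGF-β. Most of this sum is Lyz2. In co-culture Mertk and Lyz2 were called higher and Emr1 and Cd14 lower, and the other 6 markers were not called. The co-culture libraries also carried RNA of other cells. The 9 tested fibroblast markers of 12 listed were all higher in co-culture, with sums of 6352 to 9180 against at most 105.5 in the other 6 libraries, in which Lum, Thy1 and Mfap5 were at 0. All but 2 of these 9 passed the filter only through co-culture. Of 10 Schwann and satellite glia markers, 7 were higher and 2 lower in co-culture. Among the 3 glial markers that passed the filter without co-culture (Erbb3, Fabp7 and Mbp), 0 were higher and 2 lower. Their monoculture means were 727, 174 and 5459, so these genes were also read where no ganglion cells were present. Ngfr and Foxd3 were at 0 in all 6 libraries without ganglion cells. The summed glial level, 4719 to 5321 in co-culture, was below the 5745 to 6932 of the other libraries. Most of this glial sum is Mbp. The 11 sensory neuron markers gave sums of 107.8 to 208.0 in co-culture and at most 81.2 elsewhere. Replicate 1 of each group was male and replicates 2 and 3 were female. Reads of the Y-linked Ddx3y were found in both female libraries of the co-culture, at 0.576% and 0.582% of the male one. They were found in no other female library. Xist, at 29030 or more in every female library, was at 221.7 in the male co-culture library. It was at 3.25 in the male monoculture library and 9.77 in the male TGF-β library. The part of these other cells in the results that follow was not tested. In such bulk samples, fewer cells of a type and less RNA per cell cannot be told apart.

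In co-culture, 6 of the 9 members differed from monoculture, 5 higher and 1 lower. Socs3 and Socs2 rose most, Cish, Socs6 and Stat3 rose less, and Socs5 fell. These are calls by limma at a Benjamini-Hochberg adjusted p under 0.05 over 16328 tested genes, of which 30.8% were called, 15.9% higher and 15% lower. The median change of the 9 members was 0.58 on the log2 scale, against 0.03 over all tested genes. Without Stat3, the median of the 8 SOCS genes was 0.38. The 3 libraries of each group did not overlap for 7 members (6 higher, 1 lower). The same held for 45% of tested genes, 23.3% higher and 21.7% lower. Fold changes are given on the scale of log2 (normalized count + 10), which understates the change of low genes.

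Socs3, the gp130 and JAK inhibitor, had normalized counts of 196, 284 and 236 in the monoculture libraries, 3762, 4070.3 and 5025 in co-culture and 228, 286 and 334 with TGF-β. The lowest co-culture library lay far above the highest of the other 6. The rise over monoculture was 4.11 ± 0.17 (log2, SE; adjusted p = 7.54e-10), a ratio of means of 17.9, and only 78 of the 16328 tested genes had a larger fold change. Over the 17 alternative settings tried, the change stayed between 3.98 and 4.24 with an adjusted p of at most 3.32e-08.

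Socs2, a SOCS protein best known for restraining growth hormone signaling through STAT5, stood at 11.4, 49.5 and 24.8 in monoculture, at 343.4, 349.3 and 249.8 in co-culture and at 39.8, 41.5 and 31.8 with TGF-β. The monoculture values rest on 7, 43 and 32 reads, and the group spread was wide, but no library without ganglion cells came near the co-culture range. The rise was 3.18 ± 0.34 (log2, SE; limma adjusted p = 5.60e-06), and 157 tested genes had a larger fold change.

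Cish, which binds phosphorylated receptors and blocks STAT5 docking, was at 68.2, 19.6 and 21.7 in monoculture, at 97.7, 103.1 and 73.8 in co-culture and at 39.1, 67.7 and 31.8 with TGF-β. The first monoculture library nearly reached the lowest co-culture library, whose values rest on 42 and 111 reads. The rise of 1.27 ± 0.38 (log2, SE; limma adjusted p = 0.0209) depended on single libraries: the adjusted p was 0.0945 without monoculture replicate 2, 0.0780 without monoculture replicate 3, 0.0692 without co-culture replicate 1 and 0.0754 without co-culture replicate 2. Gm17040, a pseudogene on the opposite strand, overlaps exons of Cish and was listed at no more than 4.69. Gm17041, annotated as antisense, also overlaps exons of Cish and was not listed, so its level is not known.

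Socs1, the inhibitor of interferon signaling that shares the kinase inhibitory region with Socs3, gave 113.7, 78.3 and 101.5 in monoculture, 127.5, 96.9 and 105.6 in co-culture and 82.7, 104.9 and 99.99 with TGF-β. The 3 groups overlapped. Its co-culture difference of 0.16 (95% interval -0.35 to 0.67, limma adjusted p = 0.663) did not pass the test, and its interval spans changes in either direction. Few reads stand behind these values: the first monoculture library, with 70 reads, has a 95% Poisson interval of 88.6 to 143.6 around its 113.7.

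**Figure D1:**
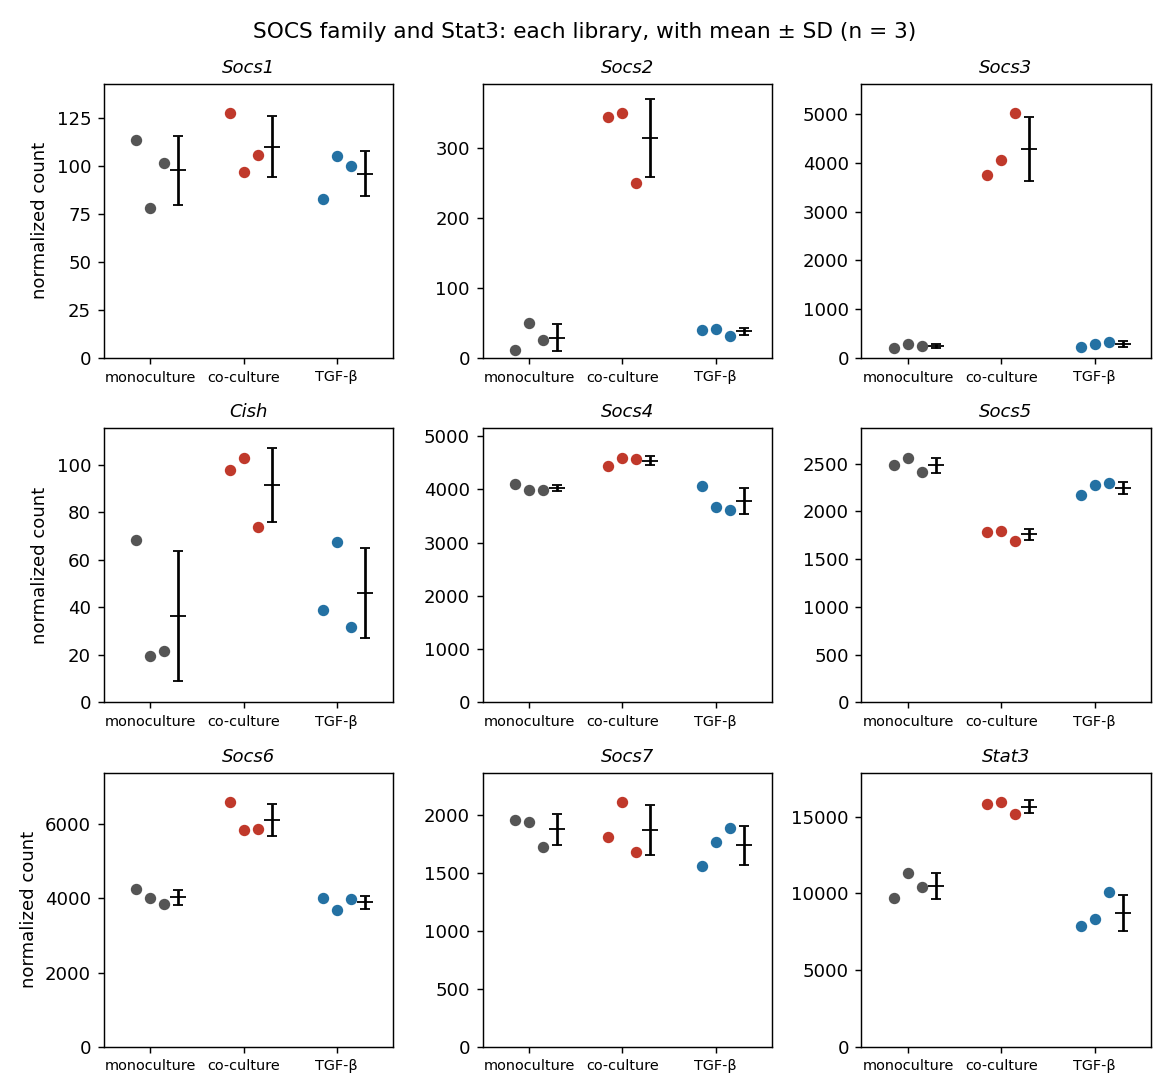
Normalized counts (linear axes from 0, a different scale for each gene) of the 9 genes in each of the 9 libraries, with bars for mean ± SD of 3 libraries. Socs3 and Socs2 in co-culture lie far above both other groups, Cish, Socs6 and Stat3 lie above them by less, Socs5 lies below, and Socs1 and Socs7 overlap in all 3 groups.

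Socs4 to Socs7 are the family members with long N-terminal regions, and they changed far less than Socs3 and Socs2. Socs6, which binds KIT and other receptor tyrosine kinases, measured 4248, 4023 and 3844 in monoculture, 6601, 5859 and 5868 in co-culture and 4006, 3682 and 3995 with TGF-β. All co-culture libraries exceeded all others, and the rise was 0.59 ± 0.08 (log2, SE; limma adjusted p = 6.23e-05), a ratio of 1.51.

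Socs5, linked to the IL-4 receptor and to EGFR turnover, moved the other way, with 2481, 2565 and 2409 in monoculture, 1788, 1797 and 1692 in co-culture and 2176, 2273 and 2293 with TGF-β. The 3 groups did not overlap one another, and TGF-β lay between the others. Socs5 fell by 0.50 on the log2 scale in co-culture (SE 0.08, limma adjusted p = 3.25e-04).

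Socs4, the closest relative of Socs5, was at 4097, 3999 and 3989.8 in monoculture, 4448, 4601 and 4576 in co-culture and 4067, 3675.5 and 3613 with TGF-β. Every co-culture library was above every monoculture library, but the difference of 0.17 (95% interval 0.01 to 0.34) did not pass (limma adjusted p = 0.109).

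Socs7, the family member that shuttles into the nucleus, gave 1955, 1939.6 and 1723 in monoculture, 1811, 2108 and 1682 in co-culture and 1556, 1761 and 1886 with TGF-β. The groups overlapped throughout, and its co-culture difference was -0.01 (95% interval -0.25 to 0.23, limma adjusted p = 0.968).

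Stat3, the transcription factor downstream of gp130 and the IL-10 receptor, measured 9702, 11342 and 10407 in monoculture, 15809, 15954 and 15148 in co-culture and 7853, 8308 and 10058 with TGF-β. The co-culture libraries formed a tight group above all others. The rise was 0.58 ± 0.10 (log2, SE; limma adjusted p = 3.41e-04), a ratio of 1.49, about as large as that of Socs6 and far smaller than that of Socs3. The last 72 bases of Stat3 overlap Stat5a on the opposite strand, which reached at most 2576 and was not called. Messenger RNA levels say nothing of STAT3 phosphorylation, which was not measured.

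Against monoculture, TGF-β changed none of the 9 members by the limma test, where 2.52% of tested genes (412) were called, 1.13% higher and 1.39% lower. At an unadjusted p under 0.05 there was 1 member, Stat3, and edgeR and DESeq2 on the recovered reads also called 0. Socs3 was 0.23 higher (95% interval -0.14 to 0.61, limma adjusted p = 0.599) and Socs2 0.43 higher (-0.31 to 1.16, adjusted p = 0.631), so both upper bounds lie below the lower bounds of their co-culture changes, 3.74 and 2.45. Cish stood 0.37 higher with a wide interval of -0.45 to 1.20.

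Stat3 was 0.27 lower with TGF-β (95% interval -0.48 to -0.06, limma adjusted p = 0.191), and its groups overlapped through the TGF-β library at 10058. Without TGF-β replicate 3 the difference was -0.37 with an adjusted p of 0.0219. Socs5 was the member whose TGF-β libraries all lay below monoculture, with a difference of -0.14 (adjusted p = 0.455), and the groups did not overlap for 16.9% of tested genes, 9.64% lower and 7.27% higher. For Socs1, Socs4, Socs6 and Socs7 the differences lay between -0.11 and -0.02. The median over the members was -0.05, against -0.01 over all tested genes.

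Set directly against TGF-β, co-culture had 5 members higher and 1 lower, where limma called 25.3% of tested genes (13.4% higher, 11.9% lower). Socs3 was 3.88 ± 0.17 higher (log2, SE; adjusted p = 3.62e-09) and Socs2 2.75 ± 0.34 higher (adjusted p = 3.32e-05). Stat3 was 0.85 ± 0.10 higher (adjusted p = 1.63e-05), more than against monoculture, and Socs6 0.65 ± 0.08 higher (adjusted p = 4.29e-05). Socs5 was lower by 0.35 ± 0.08 (log2 difference -0.35, adjusted p = 0.00584). The libraries of co-culture and TGF-β did not overlap for 7 members, 6 higher and 1 lower, and for 41% of tested genes, 21.3% higher and 19.8% lower. This comparison and the one with monoculture use the same co-culture libraries and are not independent.

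Socs4 passed against TGF-β at 0.26 ± 0.08 (limma adjusted p = 0.0209), and lost the call without co-culture replicate 1, 2 or 3 or without TGF-β replicate 2, with adjusted p-values of 0.0556, 0.0797, 0.0603 and 0.0651. Cish did not overlap between co-culture and TGF-β and was 0.89 ± 0.38 higher, but did not pass (adjusted p = 0.109). It passed when only the 6 libraries compared were fitted (adjusted p = 0.0481) and without monoculture replicate 1 (0.0429). Socs1 (0.18) and Socs7 (0.10) were not called.

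**Figure D2:**
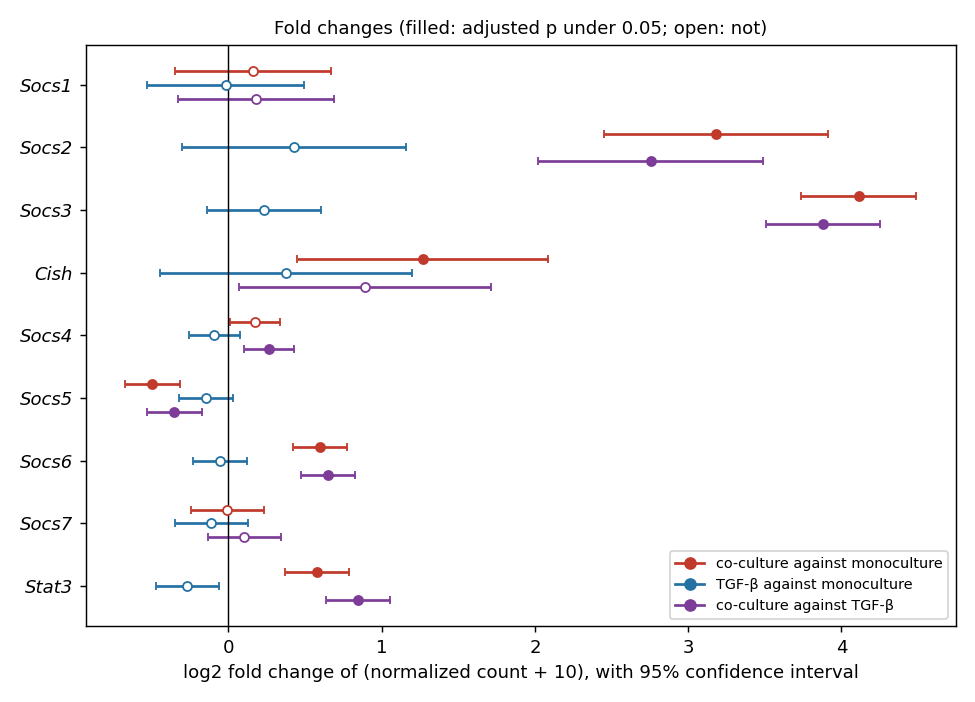
Fold change of log2 (normalized count + 10) for each gene in the 3 comparisons, with 95% confidence intervals from limma. Filled points passed an adjusted p of 0.05. Socs3 and Socs2 stand apart at 4.11 and 3.18 in co-culture against monoculture, and every TGF-β point is open.

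Levels of different genes were compared as normalized counts per kilobase of the gene's annotated exons. The divisor joined all annotated exons of a gene: 9.53 kb for Socs2, 9.53 for Stat3, 2.89 for Socs3 and 2.91 for Socs1. The order of the genes, their shares and their ratios depend on these lengths. In monoculture the order was Stat3 at 1100 ± 86.4 (SD, n = 3), Socs4 at 586 ± 8.61, Socs5 at 387 ± 12.1, Socs6 at 356 ± 17.8, Socs7 at 258 ± 17.9, Socs3 at 82.7 ± 15.2 and Socs1 at 33.6 ± 6.18, each outside the range of its neighbor. Cish (5.68 ± 4.28) and Socs2 (3.00 ± 2.03) came last, and their ranges overlapped. The order of the means was the same with TGF-β, but there Cish (7.20 ± 2.96) was above the range of Socs2 (3.96 ± 0.54), and the ranges of Socs5 (350 ± 9.70) and Socs6 (343 ± 16.2) overlapped.

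In co-culture Socs3 moved, on this measure, from the fifth place among the SOCS genes to the first. In normalized counts its mean there (4286) was below those of Socs4 (4542) and Socs6 (6109). The Socs3 level of 1482 ± 228 per kilobase was more than that of Socs4 (660 ± 11.9) and Socs6 (538 ± 37.5). The Socs3 range of 1301 to 1738 overlapped that of Stat3 (1590 to 1675). Socs5 (274 ± 9.09) and Socs7 (257 ± 30.1) overlapped, as did Socs1 (37.8 ± 5.42) and Socs2 (33.0 ± 5.85), and Cish was last at 14.3 ± 2.44. In normalized counts, which are not divided by length, Socs2 (314 ± 55.8) lay above Socs1 (110 ± 15.8) in co-culture.

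Socs3 made up 4.83% ± 0.89 (SD, n = 3) of the summed per-kilobase level of the 8 SOCS genes in monoculture, 44.8% ± 4.45 in co-culture and 6.02% ± 1.06 with TGF-β. The sum itself was 1712 ± 50.0 in monoculture, 3297 ± 174 in co-culture and 1625 ± 24.8 with TGF-β, so that the family's total was higher in co-culture while the share of the adaptor Socs4 was 20.1% against 34.2%. Per 100 units of Stat3, Socs3 stood at 7.47 ± 0.79 in monoculture, 90.6 ± 16.5 in co-culture (78.4, 84.1 and 109.3) and 10.6 ± 0.93 with TGF-β. Each monoculture library (6.67 to 8.26) lay below each TGF-β library (9.59 to 11.4), a difference that was not tested.

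**Figure D3:**
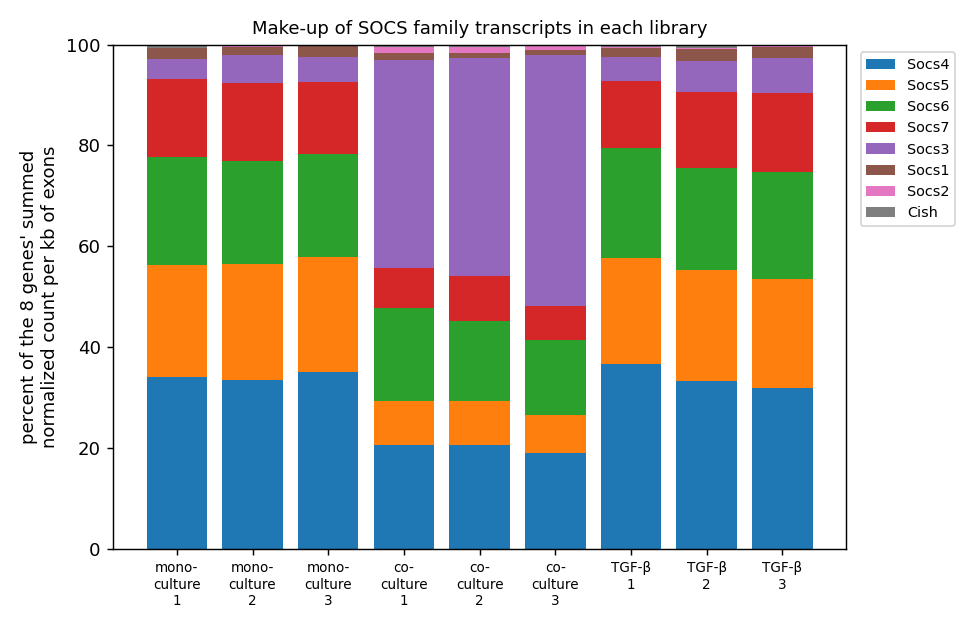
Share of each SOCS gene (percent, stacked bars) in the summed normalized count per kilobase of exons of the 8 genes, for each of the 9 libraries. Socs3 takes 41.3% to 49.8% in the co-culture libraries and 3.90% to 6.99% in the other 6.

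The genes with the profile most like that of Socs3 were sought among 7951 genes above the median level, by the root mean square difference of the log2 profiles over the 9 libraries. Spsb1, which encodes another SOCS-box adaptor, was closest at 0.302, with means of 166.5 in monoculture, 3400 in co-culture and 227.9 with TGF-β. Tgm2 (transglutaminase 2, 0.489), P2ry13 (an ADP receptor, 0.607), Itga9 (integrin α9, 0.636) and Fam46c (a poly(A) polymerase, 0.675) followed. For Socs2 they were Cd300lf (0.362), Sox4 (0.411) and Il4ra (0.421), and for Cish Hgsnat (0.342), Scoc (0.366) and Fkbp5 (0.373). The smaller changes had closer neighbors: Spats2 (0.0959), Sidt2 (0.0984) and Ttyh3 (0.103) for Stat3, Hsd17b4 (0.0648), Usp12 (0.0688) and Abcc3 (0.0744) for Socs6, and Specc1 (0.0462), Cdipt (0.0495) and Parp12 (0.0517) for Socs5. Tardbp (0.0381), Dhx36 (0.0454) and Ggnbp2 (0.0468) were nearest to Socs4. All 9 libraries enter each measure, so it is a description of these libraries.

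**Figure D4:**
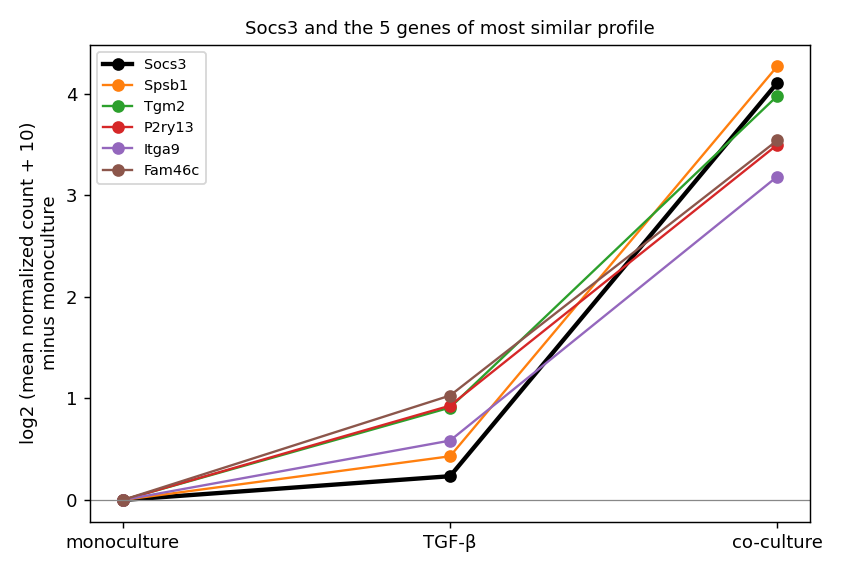
Group means of Socs3 and of the 5 genes with the most similar profile, as log2 (mean normalized count + 10) minus monoculture. All 6 lines stay within about 1 unit of monoculture with TGF-β and end 3.2 to 4.3 units above it in co-culture.

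The ligands that act upstream of these genes changed in both directions in co-culture. Of 22 listed ligands of JAK-STAT receptors, 16 were in the table and 7 were tested. Of these 7, 3 were higher and 3 lower than monoculture (median -0.03 against 0.03 for all tested genes). Among the 5 that passed the filter without the co-culture libraries, 1 was higher and 3 were lower. Of all tested genes, 15.9% were called higher and 15% lower. Osm (oncostatin M, a gp130 cytokine) had a mean normalized count of 553 ± 64.7 in monoculture, 1734 ± 230 in co-culture and 651 ± 69.2 with TGF-β, a rise of 1.63 ± 0.14 in co-culture (log2, SE; limma adjusted p = 4.92e-07). The gp130 cytokines Lif (2.83 ± 2.47 to 49.8 ± 14.4) and Clcf1 (10.7 ± 4.81 to 62.7 ± 6.63) were also higher, but passed the filter only through the co-culture libraries.

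Il10, the anti-inflammatory cytokine that signals through STAT3, ranged from 262 to 284 in the monoculture libraries, from 98.3 to 165.9 in the TGF-β libraries and from 48.4 to 58.9 in the co-culture libraries, with no overlap. It fell by 2.16 on the log2 scale in co-culture (limma adjusted p = 5.61e-06) and by 0.97 with TGF-β (adjusted p = 0.0434). Ebi3, a subunit of IL-27 and IL-35, fell by 1.25 in co-culture, and the lymphocyte growth factor Il15 fell by 0.62. Il6 was near 0 everywhere, with group means of 2.69, 3.09 and 0.251, and was not tested.

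Of 24 tested receptor genes, 11 were higher and 4 lower in co-culture (median 0.13, against 0.03 over all tested genes). Of all tested genes, 15.9% were called higher and 15% lower. Among the 23 receptor genes that passed the filter without the co-culture libraries, 10 were higher and 4 lower. With TGF-β 1 was higher (median 0.05, against -0.01), where 1.13% of all tested genes were called higher and 1.39% lower. Il4ra, the signaling chain of the IL-4 and IL-13 receptors, rose from 10077 ± 1515 to 68807 ± 5708 (2.78 ± 0.11, limma adjusted p = 4.00e-10), and Il13ra1 rose by 2.21 and Il21r by 2.25. Il21r was also the receptor that rose with TGF-β (1.18 ± 0.11, adjusted p = 8.66e-05). Osmr, the oncostatin M receptor, was at 0.925 ± 0.835 in monoculture and 80.4 ± 14.0 in co-culture and passed the filter only through co-culture, and the fibroblast markers given above moved with it.

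Il6st, the gp130 chain to which Socs3 binds, was lower in co-culture, at 5728 ± 136 against 12008 ± 318 in monoculture and 9763 ± 1813 with TGF-β. The co-culture libraries lay between 5613 and 5878, below all others. Il6st fell by 1.07 on the log2 scale against monoculture (SE 0.11, limma adjusted p = 3.35e-06), while its difference with TGF-β was -0.31 (adjusted p = 0.167). The IL-6 receptor chain Il6ra (0.04) and the LIF receptor Lifr (-0.06) were not called in co-culture, and Il10ra was 1.05 higher.

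Among the kinases that SOCS proteins restrain, Jak3 rose by 0.71 ± 0.14 and Jak2 by 0.35 ± 0.10 in co-culture (limma adjusted p = 0.00189 and 0.0162). Jak1 (0.04) and Tyk2 (-0.31) were not called, and none of the 4 was called with TGF-β. Over all tested genes, limma called 15.9% higher and 15% lower in co-culture, and 2.52% with TGF-β. Among the other STATs described, Stat4 rose by 0.82 ± 0.17 in co-culture, and Stat2 (-0.31) and Stat6 (-0.33) fell, while Stat5a and Stat5b were not called. Per kilobase of exons Stat6 was the highest of these in each group, at 4739 ± 280 in monoculture and 3762 ± 82.1 in co-culture. Stat3 overlapped Stat2 and Stat5b in monoculture and with TGF-β, and was above both in all co-culture libraries (1590 to 1675, against at most 891 for Stat2 and 961 for Stat5b).

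**Figure D5:**
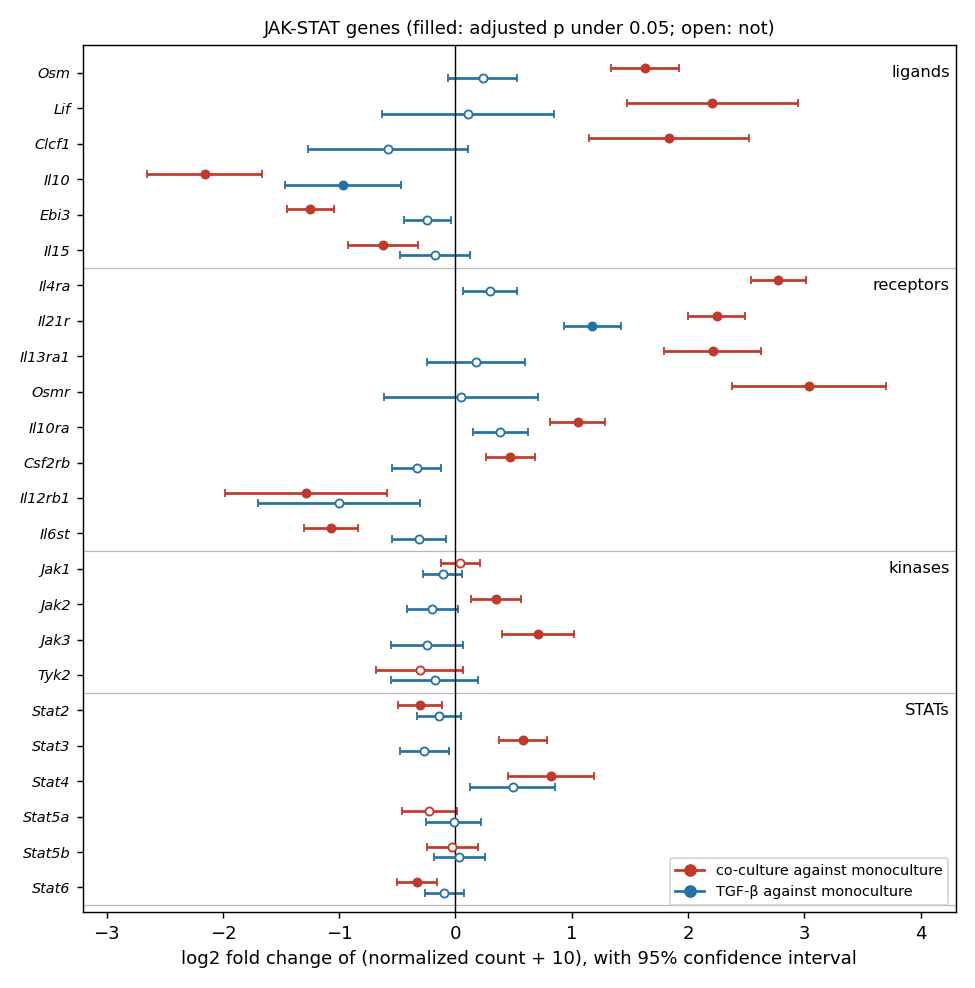
Fold change of log2 (normalized count + 10), with 95% confidence intervals from limma, for ligands and receptors with the smallest p-values, the JAK kinases and the STATs described. Il15 and Il6st are not among those of smallest p and were added. Filled points passed an adjusted p of 0.05. In co-culture Osm, Il4ra and Il21r lie to the right and Il10, Ebi3 and Il6st to the left, and with TGF-β only Il10 and Il21r are filled.

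Of the ubiquitin ligase that the SOCS box recruits, no subunit was called against monoculture. None of the 11 genes of the elongin, cullin and E2 machinery was called by limma in co-culture or with TGF-β against monoculture, and Tceb2 (elongin B) was 0.39 lower in co-culture than with TGF-β (log2 difference -0.39, adjusted p = 0.0102). Of 17 other tested SOCS-box genes, 3 were higher and 4 lower in co-culture (median -0.23, against 0.03 over all tested genes, of which 15.9% were called higher and 15% lower). Spsb1 rose by 4.26 ± 0.14 (limma adjusted p = 1.01e-10) and Vhl, the substrate receptor for HIF-1α, by 0.50, whereas Spsb4 (-0.87) and Wsb2 (-0.43) fell. With TGF-β none of the 17 was called, where 2.52% of all tested genes were. The same shares apply to the 11 ligase genes.

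Other negative regulators of the pathway numbered 17, with 1 higher and 4 lower in co-culture (median -0.02, against 0.03 over all tested genes), a share near the 30.8% of all tested genes called. Ptpn1, a tyrosine phosphatase that acts on JAK2 and TYK2, rose from 11414 ± 523 to 25119 ± 1852, by 1.14 ± 0.08 (limma adjusted p = 1.02e-07). Usp18, an interferon-induced inhibitor of the type I interferon receptor, went from 690.1 ± 66.6 to 113.7 ± 27.8, and fell by 2.52. The ubiquitin ligase Cblb (-0.76), Spry2 (-0.75), an inhibitor of receptor tyrosine kinase signaling, and Pdlim2 (-0.60) also fell. With TGF-β only Cblb was called in this list, at -0.59 (limma adjusted p = 0.0115), where 2.52% of all tested genes were called.

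Genes known to be induced through STATs changed in both directions. Their counts stand against 15.9% of all tested genes called higher and 15% called lower in co-culture, 2.52% called with TGF-β, and a median of 0.03 over all tested genes in co-culture. Of 29 tested genes induced through STAT3, 11 were higher and 6 lower in co-culture (median 0.20), among them Ier3 (1.48) and Fgl2 (1.85) higher and the cyclin Ccnd1 (-1.40) lower, and with TGF-β only Il1rn was called (-0.89). Of 10 genes induced through STAT5, of which Cish and Socs2 are also classical targets, 5 were higher and 2 lower (median 0.43). Il2ra and Lrrc32 were tested only through co-culture, and among the other 8 genes 3 were higher and 2 lower. STAT5 activity was not measured. Ccnd2 (cyclin D2) rose by 3.11 ± 0.22 in co-culture and, from 520 ± 99.6 to 1252 ± 328, with TGF-β (limma adjusted p = 1.04e-06 and 0.0139), and Bcl2l1 fell by 0.45. Lrrc32, which holds latent TGF-β at the cell surface, was at 5.02 ± 2.92 in monoculture and 124 ± 58.2 in co-culture.

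Of 9 genes induced through STAT6, the factor of IL-4 signaling, 4 were higher and 4 lower in co-culture (median 0.26): Tgm2 rose by 3.99, while the lectin Clec10a (-2.91) and the transcription factor Klf4 (-2.07) fell. With TGF-β, 1 was higher and 3 lower, with Tgm2 at 0.94 and the lectin Mgl2 at -2.19. Il4ra stands in the lists for receptors, STAT3 and STAT6 alike, and Osm in those for ligands and STAT5.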

How the data were processed

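RNA of sorted macrophages was made into libraries with the SMART-Seq Stranded kit from 10 ng, per the labels' protocols. The submitters' processing notes list bcl2fastq 2.20, STAR 2.7.3, DESeq2 1.24.0, R 3.6.1 and the mm10 build. Whether counting used strand is not given in the sources used here. The deposited table holds a normalized signal per gene and library: in each library all values (100%, tolerance 0.05) are whole multiples of the value of 1 read, so read counts were recovered. The main test was limma 3.58.1 in R 4.3.3, on log2 (value + 10), with a group-means fit to all 9 libraries, Benjamini-Hochberg adjustment over the 16328 genes with at least 10 in at least 3 libraries, and a threshold of 0.05. Recovered reads were tested with edgeR 4.0.16 and DESeq2 1.42.0. The limma fit was tested on simulated data. Gene positions and exon lengths came from GENCODE M21 (mm10), matched for 24335 identifiers and all 9 members.

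The members and gene lists were chosen with earlier results of these data known. All members are named, with at most the 4 genes of smallest p per list and comparison, the chain Il6st, the JAK and STAT genes, and the closest profiles (5 for Socs3, 3 for other called members). Il6, Il15, Il6ra, Lifr, Ddx3y, Xist and the single marker genes were named after their values were seen. Some genes that the rule covers are not reported here. The labels do not say which libraries share a mouse. Deviations from the group means over 8164 genes correlated between same-numbered monoculture and TGF-β libraries (r = 0.572, 0.190 and 0.573), so those numbers may pair them. Replicate 1 was the male library of each group, so sex and a shared mouse cannot be told apart there. Monoculture replicate 2 correlated with TGF-β replicate 3 at 0.167, close to its 0.190 with replicate 2. The main fit did not use pairing, and a fit with the replicate number as a block is given below. The Poisson intervals cover counting error only, since the reads carry no molecular identifiers in the sources used here.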

Additional observations from a re-analysis of the deposited data

How the results depend on the processing

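Across 17 alternative settings (pseudocount, filters, scaling, tools, block, fewer libraries), 441 of 459 member fold changes kept their direction and their side of the threshold. Leaving out 1 library at a time, the number of genes called ranged from 3909 to 5464 for co-culture against monoculture (5033 with all libraries), from 165 to 939 for TGF-β against monoculture (412) and from 2959 to 4601 for co-culture against TGF-β (4128). The largest count for TGF-β against monoculture came without TGF-β replicate 3, where 1 member (Stat3) was called in place of 0. With all libraries, DESeq2 called 897 genes for TGF-β against monoculture. Sign changes occurred only in values near 0 that were not called. Without 1 library, the Socs7 difference between co-culture and monoculture (-0.01 with all) lay between -0.0987 and 0.0635, above 0 without monoculture replicate 1 or 2 or co-culture replicate 1 or 3. The Socs1 difference between TGF-β and monoculture (-0.02 with all) lay between -0.156 and 0.0873, above 0 without monoculture replicate 1 or 3 or TGF-β replicate 1. The cause was not tested.

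With the replicate number as a block, 4926, 397 and 3956 genes and 6, 0 and 6 members were called in the 3 comparisons, and the block changed no member's call. Same-numbered monoculture and co-culture libraries correlated at 0.436, 0.256 and 0.0365, and co-culture and TGF-β libraries at 0.641, 0.212 and -0.175, so the numbers were not taken to pair these. With 3 libraries per group and 7 to 43 reads behind Socs2 and 17 to 42 behind Cish in monoculture, small changes of these genes could not be detected.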
